A study of Homo sapiens with 6 samples.

Results

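The genes described here are the HP1 proteins and the machinery that methylates lysine 9 of histone H3 (H3K9): CBX1, CBX3, CBX5, SUV39H1, SUV39H2, SETDB1, TRIM28, EHMT1 and EHMT2. They were taken by symbol from the table of the series, in which all 9 were found among 59050 entries, and all 9 passed the filter of a mean of at least 1 TPM (a level per unit of transcript length, scaled to a fixed sum per library). RNA-seq had been made from HFF cells (human foreskin fibroblasts) that carried ER:RAS (G12V), in which oncogenic H-RAS is fused to the hormone-binding part of the oestrogen receptor. Cells given 100 nM 4-hydroxytamoxifen (4-OHT), which activates the fusion protein, gave 3 libraries, and cells given DMSO gave 3 libraries. The 4-OHT cells were collected a week after the addition, when they showed oncogene-induced senescence. Both groups descend from cells infected at about passage 18 with the same packaged vector and selected with 200 µg/ml neomycin, so the control cells carried the fusion as well. The labels do not say whether libraries came from separate cultures, so the spread behind the p-values is that of these libraries and may be technical.

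HP1 proteins read the methylated H3K9 tail through a chromodomain and bring together further silencing factors through a chromoshadow domain. CBX5 encodes HP1α, CBX1 HP1β and CBX3 HP1γ. SUV39H1 and SUV39H2 write trimethylated H3K9 at pericentromeric and telomeric repeats, SETDB1 writes it in euchromatin and at retroviral repeats, where the corepressor TRIM28 (KAP1) recruits it, and EHMT1 (GLP) and EHMT2 (G9a) form a heterodimer that writes mainly the mono- and dimethylated forms. In senescent fibroblasts H3K9 trimethylation and HP1 proteins are known as components of senescence-associated heterochromatin foci.

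Promoters are shown first for the genes whose neighbourhood or change the values below turn on, from RefSeq (GRCh38.p14), each with 250 bases before and 50 after an annotated start and written 5′ to 3′ on the strand of the gene. The table held windows for 8 of the 9 genes, TRIM28 being the one without. CBX5 (chr12:54280073-54280372, minus strand, the upstream one of 3 listed windows) is shown because its start lies 60 bases from that of HNRNPA1 on the opposite strand. CBX3 (chr7:26201193-26201492, plus strand) is shown because its annotated exons overlap those of HNRNPA2B1 on the opposite strand. SUV39H1 (chrX:48696484-48696783, plus strand, the downstream one of 2 listed windows) is the gene with the largest log2 fold change as deposited, though CBX5 had the larger one under quantile normalization (-0.997 against -0.991) and without DMSO replicate 1 (-1.41 against -1.24), and EHMT1 (chr9:137618755-137619054, plus strand) is the one gene of the 9 whose mean level was not lower in 4-OHT. Capitals mark every match, on either strand, of GGGCGG (the GC box), of CCAAT, or of the E2F-type words TTTCCCGC, TTTCGCGC, TTTGCCGC and TTTGGCGC.
CBX5: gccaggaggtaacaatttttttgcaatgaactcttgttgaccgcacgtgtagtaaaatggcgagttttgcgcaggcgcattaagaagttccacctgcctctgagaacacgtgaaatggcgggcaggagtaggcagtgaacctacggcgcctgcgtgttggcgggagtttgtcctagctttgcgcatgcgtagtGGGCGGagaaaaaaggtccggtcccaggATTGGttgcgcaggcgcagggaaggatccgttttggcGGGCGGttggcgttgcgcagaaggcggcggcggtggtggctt
CBX3: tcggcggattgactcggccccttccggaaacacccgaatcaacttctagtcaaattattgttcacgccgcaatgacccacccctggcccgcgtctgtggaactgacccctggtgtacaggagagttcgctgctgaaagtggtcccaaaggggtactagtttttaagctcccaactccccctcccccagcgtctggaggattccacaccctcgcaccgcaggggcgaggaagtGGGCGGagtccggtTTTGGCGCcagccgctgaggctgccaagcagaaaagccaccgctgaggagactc
SUV39H1: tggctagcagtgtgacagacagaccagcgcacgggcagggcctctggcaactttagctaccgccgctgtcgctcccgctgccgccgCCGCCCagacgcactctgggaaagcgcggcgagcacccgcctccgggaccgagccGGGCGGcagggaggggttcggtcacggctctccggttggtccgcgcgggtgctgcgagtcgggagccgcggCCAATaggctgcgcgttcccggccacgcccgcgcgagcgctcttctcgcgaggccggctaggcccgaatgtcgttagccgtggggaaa
EHMT1: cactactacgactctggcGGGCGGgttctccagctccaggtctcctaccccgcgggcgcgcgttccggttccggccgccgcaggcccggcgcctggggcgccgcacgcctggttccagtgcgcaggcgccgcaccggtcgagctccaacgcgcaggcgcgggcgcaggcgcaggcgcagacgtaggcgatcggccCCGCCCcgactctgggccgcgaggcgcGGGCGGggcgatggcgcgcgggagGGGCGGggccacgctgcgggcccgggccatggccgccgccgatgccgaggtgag

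Of the 8 genes with a window, 6 held GGGCGG, 2 held CCAAT and 1 held an E2F-type word, against 48.3%, 39.7% and 3.99% of the 27305 genes in the table. The E2F-type word was TTTGGCGC in the CBX3 window, where it spans the annotated start. No matches of different motifs overlapped in these windows. SETDB1 and CBX1 held none of the motifs in these windows, nor did the upstream window of SUV39H1. The downstream windows of CBX5 held CCAAT alone. A gene was counted for a motif if any of its windows held it.

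Of the 9 genes, 8 were called lower in the 4-OHT libraries and none was called higher. Their median log2 fold change was -0.46, against -0.09 over all genes tested. Calls rest on limma with an adjusted p under 0.05 over all 15272 genes tested, on log2(TPM + 1). Fold changes of weakly expressed genes come out too small on that scale. In that test 49.6% of genes were called, 29.9% lower and 19.8% higher. Scaling by the median of ratios moved the values of all genes upward by a median of 0.113 log2 units (4039 genes, 26.5%, higher and 3579, 23.5%, lower, in place of 3018 and 4561), and 6 of the 9 were then lower and 1 higher. Summed over the 9 genes, the level was 535, 532 and 513 TPM in 4-OHT and 686, 676 and 674 TPM in DMSO. In bulk RNA, fewer cells of a type and less RNA per cell cannot be told apart.

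**Figure D1:**
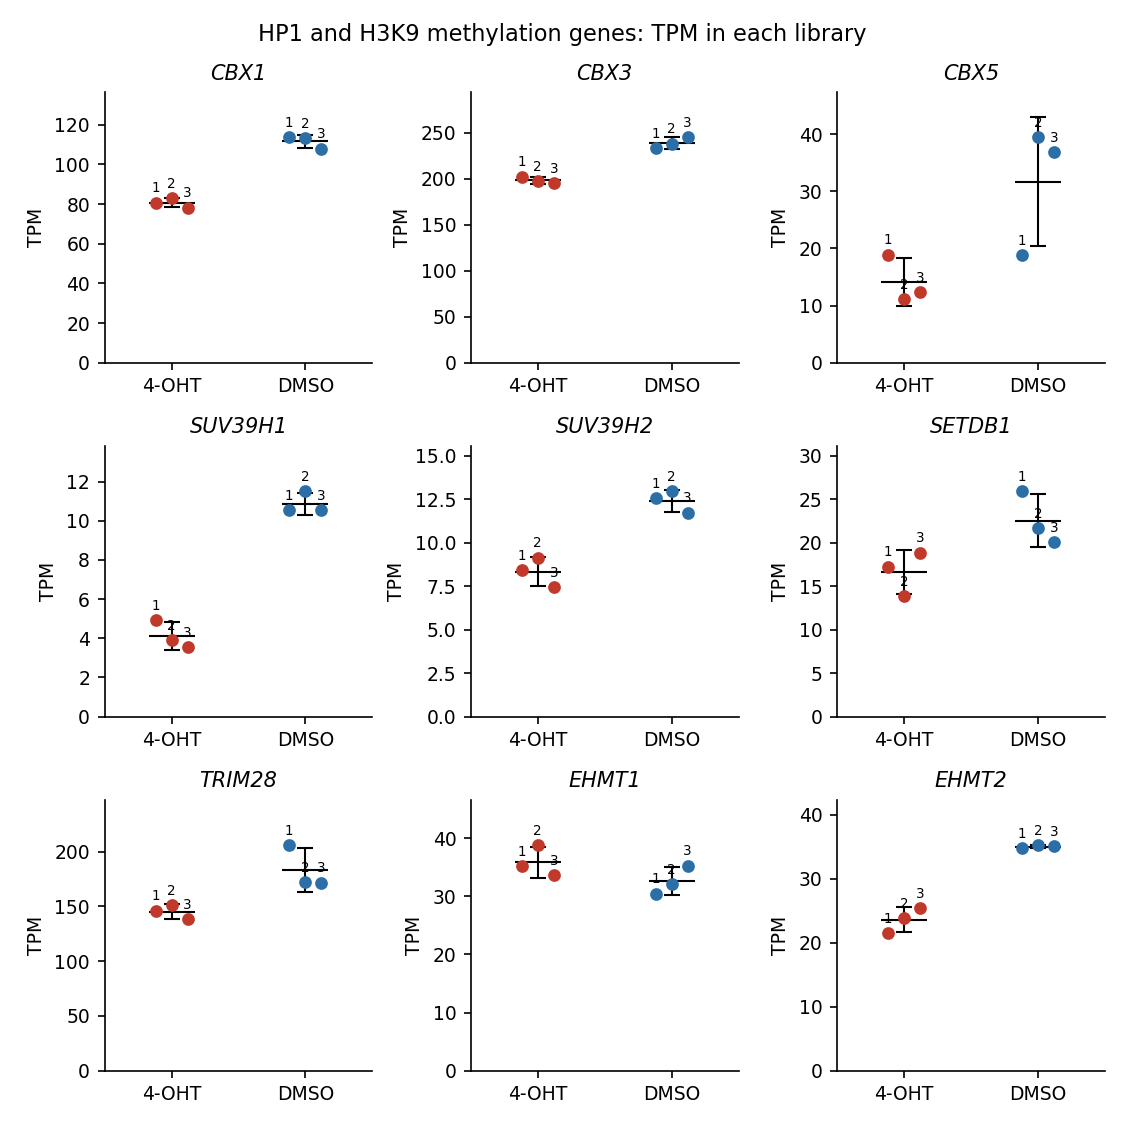
TPM of each of the 9 genes in the 3 4-OHT (red) and 3 DMSO (blue) libraries, numbered by replicate, with the mean and SD as bars and each axis starting at 0. The 4-OHT points lie below every DMSO point in 7 panels, while those of CBX5 and EHMT1 overlap the DMSO points.

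Each library added up to between 998367 and 998843 TPM, which the scaling to a fixed sum sets in advance and which is no check of likeness. Leaving out any 1 of the 6 libraries left 6637 to 6838 genes called. Read depth is unknown for TPM. Fibroblast identity was checked on 10 markers, all of them detected, with summed levels of 19101 to 19509 TPM in 4-OHT and 20227 to 20826 TPM in DMSO. VIM made up the largest part of these sums, at a mean of 11537 TPM in 4-OHT and 10399 TPM in DMSO. Of the 10 markers, 3 rose in 4-OHT, PDGFRB the most (log2 fold change 0.71). The other 7 fell, DCN the most (-1.04). Over all genes tested 19.8% were called higher and 29.9% lower. Markers of keratinocytes and epithelia summed to 32.8 to 43.2 TPM in 4-OHT and 37.5 to 52.5 TPM in DMSO, nearly all from KRT10, with KRT1 at 0 in every library. EPCAM, an epithelial adhesion protein, averaged 0.60 ± 0.135 TPM in 4-OHT and 1.55 ± 0.132 TPM in DMSO (SD, n = 3 each, adjusted p = 0.0137), a call lost with quantile normalization (0.06). The 4 endothelial markers summed to 0.898 to 1.48 TPM in 4-OHT and 0.405 to 0.639 TPM in DMSO, none of them reaching the filter. The 4 immune markers summed to 4.49 to 10.02 TPM in 4-OHT and 2.64 to 4.59 TPM in DMSO. Of these, the monocyte marker CD14 was called higher, at 5.24 ± 1.698 TPM in 4-OHT and 2.14 ± 0.822 TPM in DMSO (SD, n = 3 each, adjusted p = 0.0187), a call lost without 4-OHT replicate 1 (0.051) or 2 (0.057), without DMSO replicate 2 (0.052) and with no filter (0.09). The 4 melanocyte markers summed to 0.647 to 1.01 TPM in 4-OHT and 1.39 to 2.64 TPM in DMSO, with TYR and DCT at 0 throughout. PMEL, of the melanosome, averaged 0.49 ± 0.118 TPM in 4-OHT and 1.66 ± 0.604 TPM in DMSO (SD, n = 3 each, adjusted p = 0.0172), a call lost without 4-OHT replicate 2 (0.054), with quantile normalization (0.055) and with no filter (0.056). Without DMSO replicate 1 or 3, EPCAM and PMEL did not reach the filter. The part of these markers in the values of the 9 genes was not tested. All 23 listed genes of proliferation were called lower in 4-OHT (median log2 fold change -2.37), as were 29.9% of all genes tested. Their summed levels were 545 to 551 TPM in 4-OHT and 2387 to 2442 TPM in DMSO. TK1, which makes thymidine nucleotides, averaged 22.8 ± 1.82 TPM in 4-OHT and 179 ± 9.44 TPM in DMSO, and the mitotic protein BIRC5 averaged 15.7 ± 0.286 TPM in 4-OHT and 116 ± 2.996 TPM in DMSO (SD, n = 3 each). The part of lost proliferation in the values of the 9 genes was not tested.

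The 9 genes spanned a wide range of levels, and the order was nearly the same in both groups. In 4-OHT the order ran from CBX3 at a mean of 198 TPM through TRIM28 (145), CBX1 (80.6), EHMT1 (35.9), EHMT2 (23.6), SETDB1 (16.6), CBX5 (14.1) and SUV39H2 (8.35) to SUV39H1 at 4.13 TPM. Only SETDB1 and CBX5 were neighbours whose libraries overlapped in that group. In DMSO the order ran from CBX3 (239 TPM) through TRIM28 (183), CBX1 (112), EHMT2 (35.01), EHMT1 (32.6), CBX5 (31.7), SETDB1 (22.6) and SUV39H2 (12.4) to SUV39H1 (10.9 TPM). There the libraries of EHMT2 overlapped those of EHMT1, those of EHMT1 overlapped CBX5, and those of CBX5 overlapped SETDB1.

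Among the HP1 proteins, CBX1 and CBX3 fell moderately and evenly. CBX1 (chromosome 17, 48070052 to 48101521, GRCh38, GENCODE 29) stood at 80.6, 82.9 and 78.2 TPM in 4-OHT and at 114, 113 and 108 TPM in DMSO. All 4-OHT libraries lay below all DMSO libraries, and the mean was 1.38-fold lower (log2 fold change -0.46, SE 0.0464, adjusted p = 0.000179, and 0.00017 to 0.0015 over the alternatives). CBX3 (chromosome 7, 26201162 to 26213356) stood at 202, 198 and 195 TPM in 4-OHT and at 233, 238 and 245 TPM in DMSO. The groups did not overlap here either, with a mean 1.204-fold lower in 4-OHT (log2 fold change -0.27, SE 0.0381, adjusted p = 0.00105, and 0.00041 to 0.019 over the alternatives). Under median-of-ratios scaling its log2 fold change was -0.15.

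CBX3 has named processed copies, of which CBX3P9 alone reached 1 TPM. Its transcript matched CBX3 at 96.8% of 554 aligned bases, so reads could be split between the rows. CBX3P9 averaged 3.45 TPM in 4-OHT and 3.395 TPM in DMSO (adjusted p = 0.965). HNRNPA2B1, which encodes an RNA-binding protein and starts 367 bases from CBX3 on the opposite strand, was lower as well, at 569 ± 38.8 TPM in 4-OHT and 940 ± 88.8 TPM in DMSO (SD, n = 3 each, log2 fold change -0.72, adjusted p = 0.000248). The 2 genes share 368 exonic bases, and without a stated strand setting reads from that stretch cannot be told apart.

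CBX5, which encodes HP1α (chromosome 12, 54230940 to 54280133, minus strand), had the widest spread of the 9. It stood at 18.9, 11.1 and 12.3 TPM in 4-OHT and at 18.8, 39.5 and 36.8 TPM in DMSO. DMSO replicate 1 lay within the 4-OHT range and at about the level of 4-OHT replicate 1, so the groups overlapped. The mean was 2.25-fold lower in 4-OHT (14.1 ± 4.19 TPM against 31.7 ± 11.3 TPM, SD, n = 3 each, log2 fold change -1.08, SE 0.304, adjusted p = 0.0219, and 0.0032 to 0.11 over the alternatives). Without DMSO replicate 1 the log2 fold change was -1.41 (adjusted p = 0.0032). The call was lost without 4-OHT replicate 2 (0.068) or 3 (0.065) and without DMSO replicate 2 (0.068) or 3 (0.073). Its SD on the log2 scale within DMSO, 0.571, was larger than that of 98.4% of 5037 genes within 2-fold of its level, whose median was 0.094. Within 4-OHT the SD was 0.38, above 96.7% of those genes.

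The row of MIR3198-2, a microRNA gene of 80 bases (chromosome 12, 54231397 to 54231476) that lies whole inside the 3′ untranslated region of CBX5 on the same strand, varied the opposite way. All 80 of its bases lie in an exon of CBX5, so reads from that stretch could be counted under either row. The stretch is the whole of MIR3198-2 but only 80 of the 15040 annotated exonic bases of CBX5. The levels of both rows are uncertain to that extent. The row stood at 1.69, 23.0 and 29.8 TPM in 4-OHT and at 70.1, 1.10 and 1.83 TPM in DMSO. Within each group, the library with the most or the least of CBX5 by a wide margin was the one that stood apart in MIR3198-2: 4-OHT replicate 1 was highest for CBX5 and lowest for MIR3198-2, and DMSO replicate 1 was lowest for CBX5 and highest for MIR3198-2. The row was not called between the groups (adjusted p = 0.707), and its part in the spread of CBX5 was not tested. This comparison was made after the values were seen. HNRNPA1, an RNA-binding protein gene that starts 60 bases from CBX5 on the opposite strand, showed no such split. It stood at 417, 483 and 428 TPM in 4-OHT and at 804, 962 and 839 TPM in DMSO (log2 fold change -0.97, adjusted p = 7.57e-05).

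**Figure D2:**
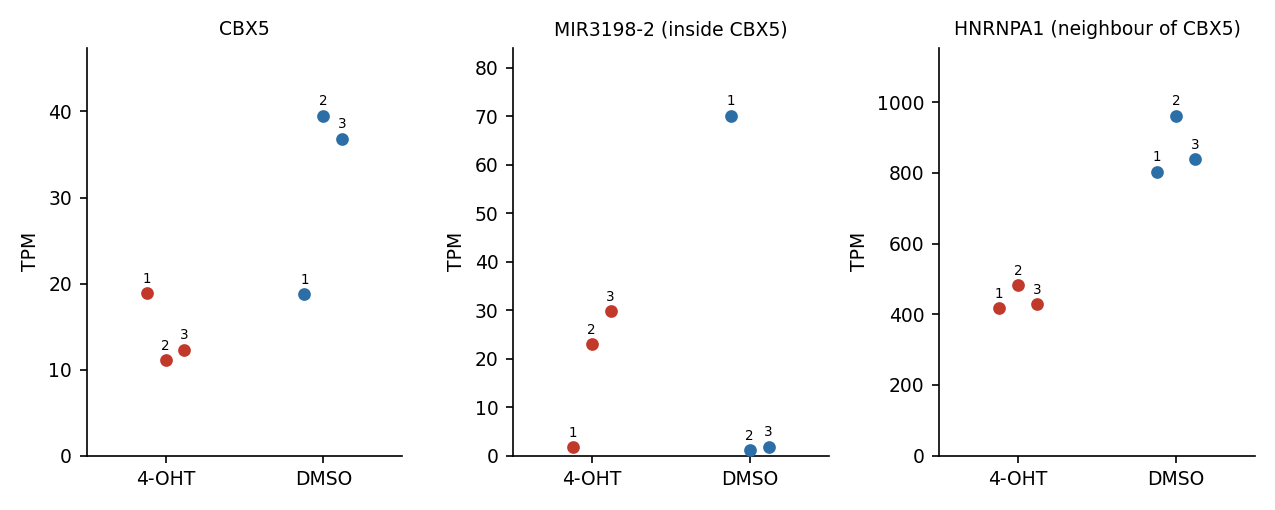
TPM of CBX5, of the microRNA row MIR3198-2 inside it and of the adjacent gene HNRNPA1 in the 3 4-OHT (red) and 3 DMSO (blue) libraries, numbered by replicate, with axes from 0. DMSO replicate 1 sits low for CBX5 (18.8 TPM) and high for MIR3198-2 (70.1 TPM), while HNRNPA1 separates the groups.

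The 3 HP1 genes were then set against one another within each library, a measure that does not depend on scaling between libraries. CBX3 made up 67.0%, 67.7% and 68.3% of the summed HP1 TPM in 4-OHT and 63.8%, 60.9% and 62.9% in DMSO. The groups did not overlap, and the exact permutation test gave p = 0.1, the smallest that 3 against 3 libraries allow (adjusted p = 0.2 over 6 shares, exact permutation). CBX5 made up 6.26%, 3.81% and 4.31% in 4-OHT and 5.13%, 10.1% and 9.45% in DMSO (exact permutation p = 0.2, adjusted p = 0.24), and these ranges overlapped. CBX1 held 27.5 ± 0.862% in 4-OHT and 29.2 ± 1.74% in DMSO (SD, n = 3 each, exact permutation p = 0.2, adjusted p = 0.24). That difference of -1.73 percentage points was -0.79 without DMSO replicate 1. All share tests were 2-sided.

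The writers SUV39H1 and SUV39H2 fell in all 4-OHT libraries, SUV39H1 further. SUV39H1 (chromosome X, 48695554 to 48709012) stood at 4.94, 3.91 and 3.55 TPM in 4-OHT and at 10.5, 11.5 and 10.5 TPM in DMSO. The groups were far apart, with a mean 2.63-fold lower in 4-OHT (log2 fold change -1.22, SE 0.125, 95% confidence interval -1.51 to -0.92, adjusted p = 0.000211, and 0.0002 to 0.0022 over the alternatives). SUV39H2 (chromosome 10, 14878820 to 14904315) stood at 8.43, 9.15 and 7.45 TPM in 4-OHT and at 12.6, 13.0 and 11.7 TPM in DMSO. It was 1.49-fold lower without overlap (log2 fold change -0.53, SE 0.0994, adjusted p = 0.00396, and 0.0033 to 0.023 over the alternatives).

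SUV39H1 made up 36.9%, 29.9% and 32.3% of the summed TPM of this pair in 4-OHT and 45.6%, 47.0% and 47.4% in DMSO. The share differed by -13.6 percentage points, 4-OHT minus DMSO, without overlap (exact permutation p = 0.1, the smallest possible, adjusted p = 0.2). DCLRE1C, a nuclease gene of DNA repair that shares 159 exonic bases with SUV39H2 on the opposite strand, was lower too, at 2.29 ± 0.384 TPM in 4-OHT and 8.14 ± 0.409 TPM in DMSO (SD, n = 3 each, log2 fold change -1.48, adjusted p = 8.87e-05). Reads from the shared stretch cannot be told apart without a stated strand setting.

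By the distance between profiles centred on their mean, the 3 genes nearest to SUV39H1 among 11053 of at least 5 TPM were H1FX, FLI1 and SNHG7. H1FX, a linker histone variant gene, was at a root mean square distance of 0.0616 log2 units over the 6 libraries, with 54.7, 47.4 and 42.7 TPM in 4-OHT and 120, 113 and 111 TPM in DMSO. The ETS factor gene FLI1 (distance 0.0669) stood at 5.11, 4.62 and 3.51 TPM in 4-OHT and at 11.003, 11.7 and 10.7 TPM in DMSO. The long non-coding RNA SNHG7 followed at 0.0687. In all 3, as in SUV39H1, replicate 1 was the highest and replicate 3 the lowest of the 4-OHT libraries. The 3 genes were picked for their closeness over these same libraries, so this shared order comes with the choice and is no separate result. None of the 9 genes was called higher, so no gene was matched for a rise.

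SETDB1 and its recruiter TRIM28 were called lower with less certainty. SETDB1 (chromosome 1, 150926263 to 150964744) stood at 17.3, 13.8 and 18.9 TPM in 4-OHT and at 25.95, 21.7 and 20.04 TPM in DMSO. The groups came close without overlapping, and the mean was 1.36-fold lower in 4-OHT (log2 fold change -0.42, SE 0.137, adjusted p = 0.0382, and 0.03 to 0.14 over the alternatives). The call was lost without 4-OHT replicate 1 (0.067) or 2 (0.096), without DMSO replicate 1 (0.11) or 2 (0.072), and under median-of-ratios scaling (0.11) or quantile normalization (0.081). CERS2, a ceramide synthase gene on the opposite strand, shares 948 of the 7093 annotated exonic bases of SETDB1. Without a stated strand setting, reads from that stretch cannot be told apart. CERS2 averaged 149 ± 6.47 TPM in 4-OHT and 133 ± 7.12 TPM in DMSO (SD, n = 3 each, log2 fold change 0.16, adjusted p = 0.0438). The call was lost in 8 of 13 alternatives, among them those without 4-OHT replicate 1 or 3 and without DMSO replicate 2 or 3 (adjusted p from 0.086 to 0.13). The part of CERS2 reads in the SETDB1 values was not tested.

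TRIM28 (chromosome 19, 58544091 to 58550722) stood at 146, 151 and 138 TPM in 4-OHT and at 206, 172 and 171 TPM in DMSO. DMSO replicate 1 was high for TRIM28, as it was for SETDB1, and the groups did not overlap. The mean was 1.26-fold lower in 4-OHT (log2 fold change -0.33, SE 0.0792, adjusted p = 0.0116, and 0.0094 to 0.067 over the alternatives). With median-of-ratios scaling it was not called (log2 fold change -0.21, adjusted p = 0.067). SETDB1 made up 10.6%, 8.39% and 12.01% of the summed TPM of SETDB1 and TRIM28 in 4-OHT and 11.2%, 11.2% and 10.5% in DMSO, which overlap (exact permutation p = 0.8).

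Of the heterodimer partners, EHMT2 fell and EHMT1 was not called. EHMT2 (chromosome 6, 31879759 to 31897687) stood at 21.5, 23.8 and 25.4 TPM in 4-OHT and at 34.7, 35.2 and 35.04 TPM in DMSO. It was 1.48-fold lower in 4-OHT without overlap (log2 fold change -0.55, SE 0.0734, adjusted p = 0.000736, and 6e-04 to 0.004 over the alternatives). EHMT1 (chromosome 9, 137618963 to 137870016) stood at 35.2, 38.8 and 33.6 TPM in 4-OHT and at 30.5, 32.1 and 35.3 TPM in DMSO. Its groups overlapped (log2 fold change 0.13, SE 0.0812, 95% confidence interval -0.06 to 0.33, adjusted p = 0.215, and 0.035 to 0.5 over the alternatives), and it was called higher under median-of-ratios scaling alone (0.25, adjusted p = 0.035).

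EHMT1 made up 62.1%, 62.0% and 56.9% of the summed TPM of EHMT1 and EHMT2 in 4-OHT and 46.7%, 47.7% and 50.2% in DMSO. Every 4-OHT library thus lay above every DMSO library, by 12.1 percentage points between the means (exact permutation p = 0.1, the smallest possible, adjusted p = 0.2). ARRDC1-AS1, a non-coding RNA whose gene starts 57 bases from EHMT1 on the opposite strand with no shared exonic base, averaged 10.8 ± 1.25 TPM in 4-OHT and 19.6 ± 0.491 TPM in DMSO (SD, n = 3 each, log2 fold change -0.81, adjusted p = 0.00043). The 5 writers together summed to 87.4, 89.5 and 88.9 TPM in 4-OHT and to 114, 114 and 113 TPM in DMSO.

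**Figure D3:**
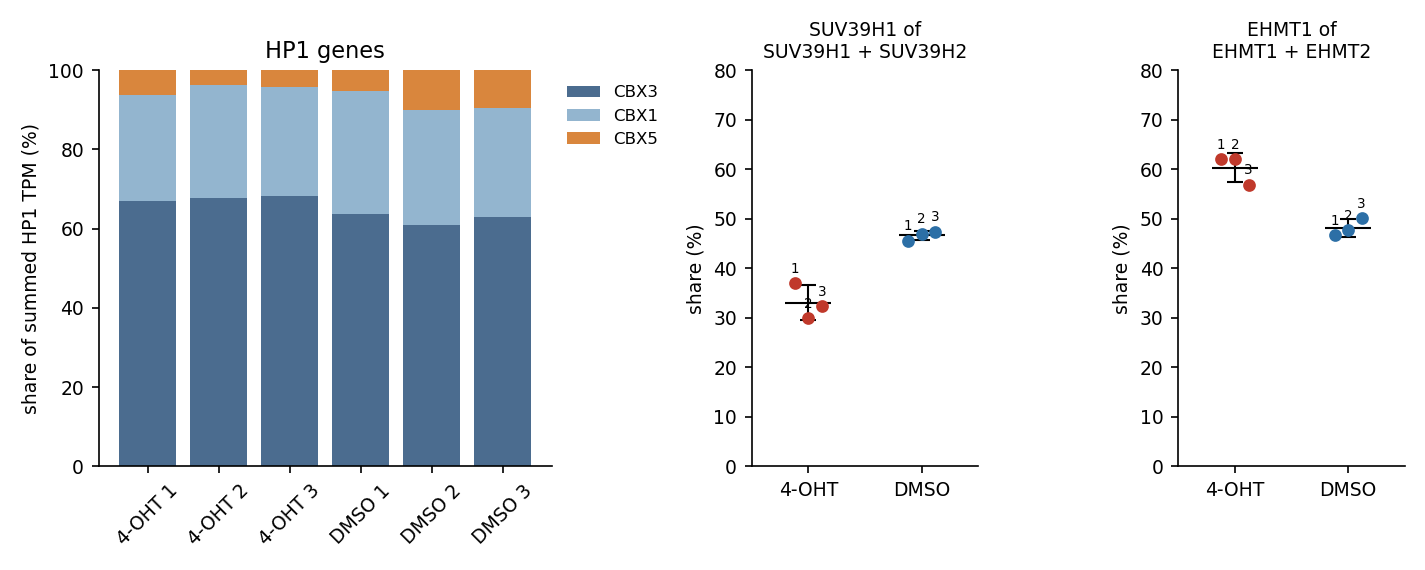
Left, share of CBX3, CBX1 and CBX5 in the summed HP1 TPM of each library (stacked bars, 4-OHT libraries left, in percent). Middle and right, share of SUV39H1 in SUV39H1 plus SUV39H2 and of EHMT1 in EHMT1 plus EHMT2 in each library (points numbered by replicate, bars mean and SD), where the SUV39H1 share averages 33.1% in 4-OHT and 46.6% in DMSO and the EHMT1 share 60.3% in 4-OHT and 48.2% in DMSO.

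In 7 of the 9 genes the 4-OHT libraries lay wholly below the DMSO libraries, which was so for 35.2% of the genes tested. As deposited, the order by log2 fold change ran from SUV39H1 and CBX5 through EHMT2, SUV39H2, CBX1, SETDB1, TRIM28 and CBX3 to EHMT1. CBX1, CBX3, SUV39H1, SUV39H2 and EHMT2 kept their direction and call in all 13 alternatives. Each alternative called 6637 to 7618 genes, and the share of all genes that kept their call throughout was not computed.

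**Figure D4:**
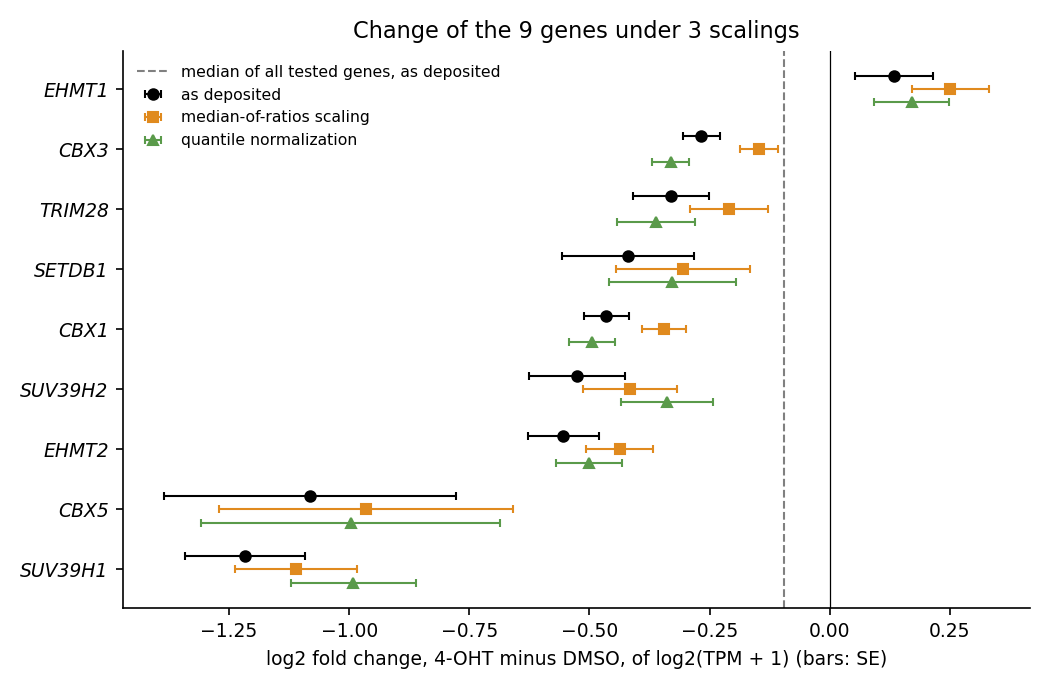
Log2 fold change (4-OHT minus DMSO, log2(TPM + 1) scale) of the 9 genes, with SE as bars, as deposited, under median-of-ratios scaling and under quantile normalization, with the median of all tested genes (-0.09, as deposited) as a dashed line. SUV39H1 and CBX5 lie farthest to the left, and EHMT1 is right of 0 under each scaling.

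Most of the listed genes that work with the writers were not called, and the rest went in different directions. Of 14 listed partners 2 rose, 3 fell and 9 were not called (median log2 fold change -0.04, against -0.09 over all genes tested). Among all genes tested 49.6% were called. RESF1, which acts with SETDB1 in silencing endogenous retroviruses in mouse embryonic stem cells, stood at 29.9, 39.3 and 34.8 TPM in 4-OHT and at 9.09, 8.58 and 7.48 TPM in DMSO. It had the largest change in the list (log2 fold change 1.92, SE 0.118, adjusted p = 1.56e-05). UHRF1, which reads methylated H3K9 and hemimethylated DNA, averaged 19.8 ± 0.477 TPM in 4-OHT and 57.5 ± 2.77 TPM in DMSO (SD, n = 3 each, log2 fold change -1.49, adjusted p = 2.3e-06). ATF7IP2, a relative of the SETDB1 cofactor ATF7IP, averaged 5.95 ± 1.19 TPM in 4-OHT and 10.99 ± 0.622 TPM in DMSO (log2 fold change -0.80). ZNF644, a zinc finger partner of the EHMT heterodimer, was higher (log2 fold change 0.28, adjusted p = 0.0179), a call lost without 4-OHT replicate 2 (0.056) or DMSO replicate 3 (0.055).

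Of 15 listed proteins that bind HP1 or act with it in heterochromatin, 7 fell, 1 rose and 7 were not called (median -0.37). Over all genes tested 29.9% fell, 19.8% rose and the rest were not called. CHAF1B, a subunit of the CAF-1 chaperone that assembles histones at replication, averaged 2.02 ± 0.438 TPM in 4-OHT and 12.4 ± 0.464 TPM in DMSO (SD, n = 3 each, log2 fold change -2.15). SGO1, the protector of centromeric cohesion, averaged 2.12 ± 0.364 TPM in 4-OHT and 11.1 ± 1.45 TPM in DMSO (log2 fold change -1.96). LBR, the lamin B receptor, which tethers HP1 chromatin to the nuclear envelope and was picked with its values in view, averaged 9.09 ± 0.451 TPM in 4-OHT and 33.1 ± 1.43 TPM in DMSO (log2 fold change -1.76). Several of these genes, among them CHAF1B and SGO1, are known to act in S phase or mitosis. ATRX, a chromatin remodeller at repeats, was higher (log2 fold change 0.27, adjusted p = 0.0368), a call lost in 7 of 13 alternatives, including the removal of any library but 4-OHT replicate 1 (adjusted p from 0.053 to 0.11).

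Of 10 listed H3K9 demethylases 9 were tested, of which 3 rose, 2 fell and 4 were not called (median 0.00). The share called over all genes tested was 49.6%. KDM4B, which removes trimethyl groups, stood at 25.5, 26.1 and 29.1 TPM in 4-OHT and at 13.4, 15.4 and 13.7 TPM in DMSO (log2 fold change 0.88, SE 0.0853, adjusted p = 0.000154). JMJD1C, a relative of the dimethyl demethylases KDM3A and KDM3B, stood at 29.8, 31.4 and 31.0 TPM in 4-OHT and at 15.2, 17.9 and 16.4 TPM in DMSO (0.86, adjusted p = 9.39e-05). Both were higher in all 4-OHT libraries. PHF2, a demethylase of dimethylated H3K9, averaged 10.3 ± 0.617 TPM in 4-OHT and 16.0 ± 0.972 TPM in DMSO (SD, n = 3 each, log2 fold change -0.59). KDM4C was lower (-0.40, adjusted p = 0.00609), though not with quantile normalization (0.069). KDM4D stayed below 1 TPM on average and was not tested. The summed level of the listed demethylases was 150 to 160 TPM in 4-OHT and 135 to 141 TPM in DMSO.

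The Polycomb CBX proteins, which share the chromodomain with HP1 but read methylated H3K27, were called in all 4 genes considered, 1 higher and 3 lower. For comparison, 49.6% of all genes tested were called. CBX2 averaged 0.482 ± 0.229 TPM in 4-OHT and 2.46 ± 0.531 TPM in DMSO (SD, n = 3 each, log2 fold change -1.22), and CBX7, known as a repressor of CDKN2A, averaged 3.17 ± 0.271 TPM in 4-OHT and 6.23 ± 0.883 TPM in DMSO (-0.79). CBX6 was higher (log2 fold change 0.19, adjusted p = 0.0206), a call lost without 4-OHT replicate 2 (0.06) or 3 (0.06) or DMSO replicate 1 (0.061).

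Of 9 listed genes of senescence-linked chromatin 5 rose, 3 fell and 1 was not called (median 0.20), where 49.6% of all genes tested were called. HMGA2, an architectural protein of senescence-associated foci, averaged 429 ± 11.7 TPM in 4-OHT and 193 ± 2.39 TPM in DMSO (SD, n = 3 each, log2 fold change 1.15), and CDKN2A rose by 0.99 log2 units. HMGB2 and LMNB1 fell by 3.62 and 2.99 log2 units. Of 6 listed genes derived from endogenous retroviruses, whose repeats SETDB1 and TRIM28 silence, only ERVK3-1 and ERV3-1 reached a mean of 1 TPM. ERVK3-1 was higher, at 51.6, 57.2 and 52.6 TPM in 4-OHT and 38.6, 36.9 and 39.2 TPM in DMSO (log2 fold change 0.48, adjusted p = 0.000549), and ERV3-1 was not called (-0.17, adjusted p = 0.735).

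**Figure D5:**
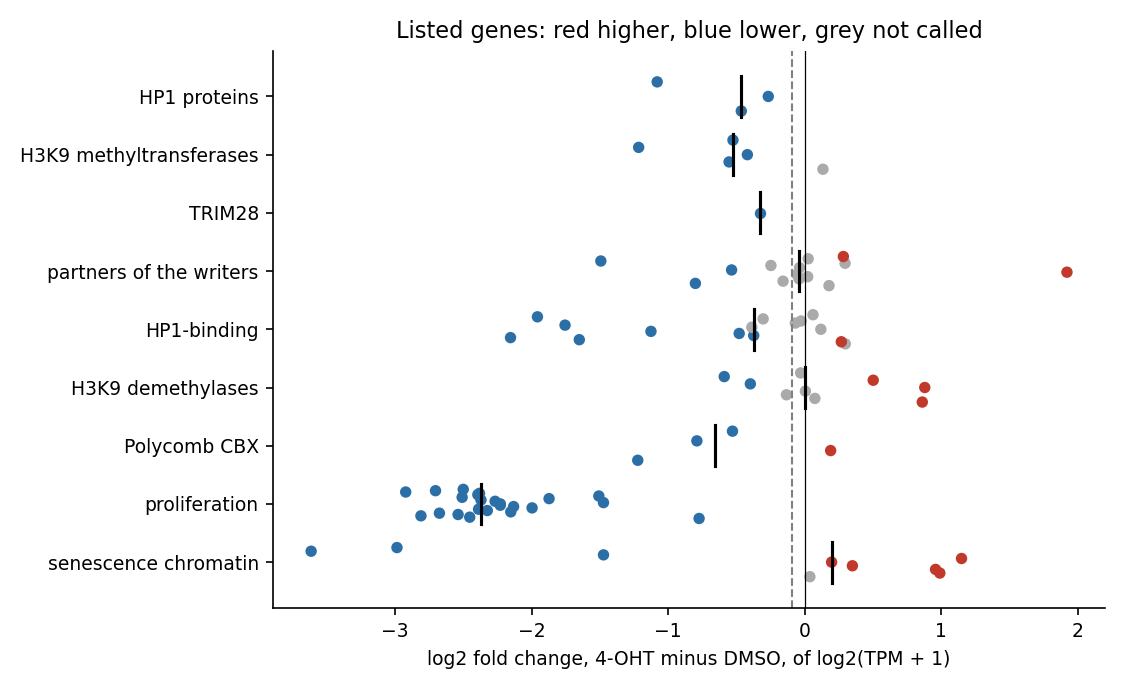
Log2 fold change (4-OHT minus DMSO, log2(TPM + 1) scale) of each tested gene of the 9 genes by role and of the related lists, red where higher and blue where lower at an adjusted p under 0.05, grey otherwise, with the median of a list as a black bar and that of all tested genes (-0.09) as a dashed line. The HP1 genes and all writers but EHMT1 are left of 0, the demethylases spread to both sides, and the proliferation genes lie farthest left as a group (median -2.37).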

How the data were processed

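Values were used as the authors deposited them, TPM per gene symbol for 59050 entries in 6 libraries. The tools named, per the submitters' processing notes, are Trim Galore 0.6.6, then STAR, StringTie and the build GRCh38. Annotation and strandedness: not given in the sources used here. In the column of DMSO replicate 3, other values being TPM as deposited, 1 value below 0 was set to 0. Of the symbols, 2 are duplicated. Positions are from GENCODE 29.

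The test was limma 3.58.1 (R 4.3.3) on genes averaging 1 TPM or more (variance trend, no covariates, 2-sided), after log2(TPM + 1), with Benjamini-Hochberg adjustment over all genes tested and a threshold of 0.05. Shares within a library were compared by exact permutation (scipy 1.17.1). Alternatives changed the scaling, pseudocount, filter, variance trend, replicate block and set of libraries. Transcript identity came from blastn 2.17.0.

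All 9 genes are named. From each related list the 2 largest called changes in each direction are named, with neighbours whose start lies within 1 kb or that overlap, and the 3 most similar profiles. Members and lists were chosen with earlier results of these data known. A gene of the Polycomb list is not reported here. Other named genes are marked as chosen later or serve as background.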

Additional observations from a re-analysis of the deposited data

How the results depend on the processing

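The 13 alternatives left 6637 to 7618 genes called. With all libraries 7579 of 15272 genes tested (49.6%) and 8 of the 9 were called. Leaving out each library in turn, 6637 to 6838 of 15214 to 15365 genes tested and 6 to 7 of the 9 were called. With no filter on low values, 36814 genes entered the adjustment, of which 6834 were called, a smaller share than with the filter. Of the 9 genes 5 were then called: CBX5, SETDB1 and TRIM28 dropped out with adjusted p of 0.11, 0.14 and 0.059. No log2 fold change of the 9 genes changed sign under any alternative. The share of SETDB1 in SETDB1 plus TRIM28, which differed by -0.63 percentage points (4-OHT minus DMSO), ranged from -1.48 to 0.33 percentage points on leaving out each library, being higher in 4-OHT without 4-OHT replicate 2 (the cause was not tested). With the replicate number as a block, 7065 of 15272 genes tested and 7 of the 9 were called. CBX5 was the one lost (adjusted p = 0.056). The labels give no pairing. Same-numbered libraries had deviations that correlated by 0.0476, 0.00551 and 0.00668 across genes, and different-numbered ones by -0.0573 to 0.0497. With 3 libraries per group such values cannot show whether same-numbered libraries shared a culture or batch. Pairing stays unknown. For the shares, the block cannot change the difference between the means, so only p could move. Exact permutation within pairs, where p cannot go below 0.25, gave 0.25 for the shares of CBX1, CBX3, SUV39H1 and EHMT1. It gave 0.5 for that of CBX5 and 0.75 for that of SETDB1. Without a variance trend SETDB1 was not called (adjusted p = 0.057). Depth is unknown, and 3 libraries per group limit the precision.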

Other observations

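Zinc finger genes, many of which encode proteins that bring TRIM28 to DNA and are themselves marked by H3K9 methylation, were described after the data were seen, by symbols of the form ZNF plus a number. Of 412 tested, 41 were higher and 86 lower in 4-OHT, with a median log2 fold change of -0.11 against -0.09 over all genes. Under median-of-ratios scaling 60 were higher and 62 lower of 410, with a median of -0.00 against 0.01 over all genes. As deposited 30.8% of them were called, against 49.6% of all genes tested. This difference was not tested, and the zinc finger genes were not matched to other genes by level.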
